A study of Mus musculus with 8 samples.

Results

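The genes described here build the nuclear pore or carry cargo through it. They were taken by name from a table of 43346 genes: the nucleoporins named Nup with a number, the karyopherins named Kpna or Kpnb, the importins (Ipo), exportins (Xpo), transportins (Tnpo) and Ran-binding proteins (Ranbp), with Ran, Rangap1 and Rcc1. A gene also needed at least 100 counts summed over the 8 libraries. All 56 genes with such a name reached that sum, the nearest being Nup62cl with 132 counts and Nup210l with 368, and all 56 entered the test, among 20987 genes tested. By role they were 21 nucleoporins, 18 import receptors, 7 exportins (Ranbp17, a relative of exportin 7, among them), 7 genes of the Ran cycle and 3 others.

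RNA was sequenced from mouse brain, cortex with hippocampus, at 1.5 months of age. One group of 4 mice carried GFP alone and the other group of 4 carried GFP joined to a run of 100 glycine-arginine repeats (GFP-GR100), with 2 females (libraries 1 and 2) and 2 males (libraries 3 and 4) in each group. The repeat was placed in frame with EGFP in a vector of the adeno-associated virus type. Both groups therefore carried GFP, and they differed in the repeat. The sources used here do not give the construct's promoter, its route or the cells that took it up. Poly(GR) is 1 of the dipeptide products of the repeat expansion in C9orf72, the most common known genetic cause of frontotemporal dementia and amyotrophic lateral sclerosis. Each library was labelled with a mouse and a brain weight of its own, so a replicate was taken as 1 animal.

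The nuclear pore is a ring of nucleoporins set in the nuclear envelope. Its outer and inner rings form the scaffold, and nucleoporins rich in phenylalanine and glycine fill the channel. Import receptors bind cargo in the cytoplasm and release it in the nucleus, where Ran carries GTP. Exportins bind cargo together with that Ran and release it in the cytoplasm, where Rangap1 makes Ran hydrolyse its GTP. Rcc1, on chromatin, loads Ran with GTP again. Arginine-rich dipeptide repeats are widely studied for their binding to pore proteins and import receptors. The values here are RNA levels, which do not measure transport or the place of a protein.

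Library totals ran from 65880460 to 89113010 counts. Yam1, AY036118 and Lars2, 3 loci with ribosomal RNA sequence, took 11.4%, 6.74%, 3.80% and 3.54% of the counts of GFP 1 to 4. Their share over GFP-GR100 1 to 4 was 3.20%, 2.76%, 8.77% and 9.83%. It was thus high in females of one group and in males of the other. The labelled tissue weighed 111.4 to 126.6 mg in GFP mice and 71.9 to 85.1 mg in GFP-GR100 mice. The summed markers of excitatory and inhibitory neurons, astrocytes, oligodendrocytes and microglia were well above 0 in every library. By edgeR none of the 7 excitatory and 3 inhibitory neuron markers was called in either direction. Nor was any of the 4 oligodendrocyte, 5 proliferation and 3 endothelial markers, with median log2 fold changes of -0.28, -0.49 and 0.16. Of the 6 microglial markers 4 were called higher in GFP-GR100, with a summed level of 206 to 254 CPM (counts scaled to the library total) in GFP and 328 to 350 CPM in GFP-GR100. Of the 5 astrocyte markers 1, Gfap, was called higher, with sums of 1046 to 1178 CPM and 1485 to 1598 CPM. Gfap alone had means of 237 CPM in GFP and 608 CPM in GFP-GR100, and the groups overlapped in each other astrocyte marker. The interferon-response genes Oasl2, Ifit1 and Irf7, all 3 reported, were called higher, with sums of 7.33 to 26.2 CPM and 172 to 255 CPM. Of the 4 choroid plexus markers 1, Folr1, was called lower, with sums of 125 to 355 CPM and 30.7 to 85.5 CPM. Those sums were mostly Ttr, with means of 215 and 40.2 CPM, which was not called (adjusted p = 0.145 by edgeR). Folr1 had means of 2.11 and 0.439 CPM. The part of these differences in the values below was not tested. In bulk tissue, fewer cells of a type and less RNA per cell cannot be told apart.

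Levels were compared between genes on the deposited RPKM (reads scaled to gene length and library total), as means over all 8 libraries. The highest levels were those of Rangap1 and Ran. Rangap1, the GTPase activator of Ran, stood at 69.2 RPKM and Ran itself at 55.9 RPKM. Rangap1 ran from 56.7 to 83.2 RPKM over the libraries and Ran from 49.5 to 67.3 RPKM, so the ranges of these neighbours overlapped. Both were read in the same libraries, and these ranges do not compare them within a library. Rcc1, the exchange factor at the other end of the cycle, stood at 3.36 RPKM. Its range of 2.68 to 3.85 RPKM lay far below both.

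Import receptors had a median of 15.5 RPKM and were led by Tnpo2, a transportin for RNA-binding proteins, at 36.7 RPKM. Ipo5, which imports ribosomal proteins and histones, followed at 30.9 RPKM. Kpnb1 (importin beta 1), the carrier that works with the importin alpha adaptors, was at 28.6 RPKM, and Ipo7, a carrier of ribosomal proteins and other cargo, at 27.7 RPKM. The library ranges of Ipo5 (23.5 to 35.3), Kpnb1 (25.2 to 31.8) and Ipo7 (21.2 to 36.6) overlapped, so their order is not fixed by these data. Of the importin alpha adaptors Kpna3 was highest at 20.3 RPKM, and Kpna2, known from dividing cells, lowest at 2.39 RPKM.

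Exportins had a median of 8.37 RPKM. Xpot, the exporter of tRNA, was highest at 14.2 RPKM, and its range of 12.4 to 15.9 lay above that of Xpo1 (CRM1, the exporter of proteins with a leucine-rich export signal), which had a mean of 10.8 and a range of 9.45 to 11.9 RPKM. Nucleoporins had the lowest median of these 4 roles, 4.19 RPKM. Nup62, the core of the central channel, was highest at 12.1 RPKM, followed by the basket protein Nup50 at 9.08 and the scaffold protein Nup93 at 8.55 RPKM. Nup62cl and Nup210l, relatives of Nup62 and Nup210, were close to silent at 0.0939 and 0.105 RPKM. The median of all genes tested was 3.72 RPKM.

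**Figure D1:**
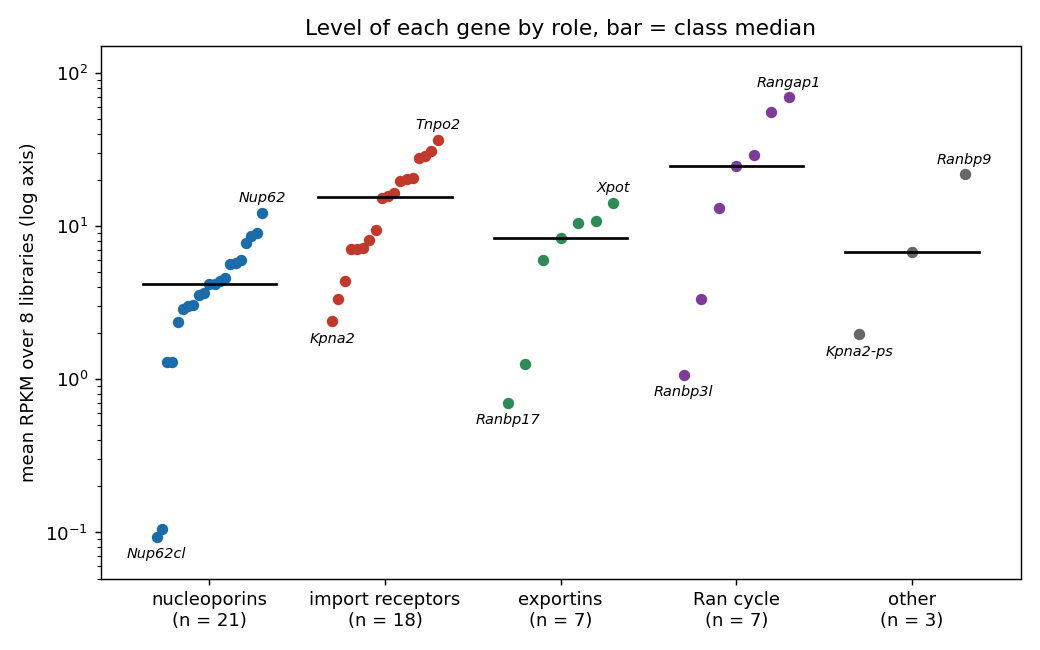
Mean RPKM of each gene over the 8 libraries on a log axis, by role, with 1 point per gene and a bar at the class median. The Ran cycle (median 24.7 RPKM) and the import receptors (15.5) lie above the exportins (8.37) and nucleoporins (4.19), and Nup62cl and Nup210l lie apart at the bottom.

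Of the 56 genes, 0 were called higher in GFP-GR100 than in GFP and 0 were called lower by edgeR's quasi-likelihood test at a Benjamini-Hochberg adjusted p of 0.05. Over all genes tested 2.19% were called higher and 0.324% lower. DESeq2, limma-voom and limma-trend on RPKM called 0 of the 56 as well. The shares of all genes that these tools called are not given here, so their 0 is no separate support. At an unadjusted p under 0.05, edgeR gave 2 genes higher (Nup210l and Kpna2-ps), against a background of 8.23% of all genes. It gave 8 lower at that level (Ipo7, Xpo7, Nup85, Kpna1, Kpna7, Tnpo3, Rangap1 and Nup153), against a background of 7.37%. The smallest adjusted p was 0.149, for Ipo7.

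The intervals show how large a difference the data leave room for. In 55 of the 56 genes the 95% interval of the log2 fold change lay within 1 of 0, the exception being Nup210l. In 47 of the 56 it lay within 0.5 of 0. The median distance from estimate to interval end was 0.21, from 0.16 in Ranbp9 to 0.81 in Nup62cl. The median standard error was 0.10 in these genes and 0.13 in all genes tested.

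**Figure D2:**
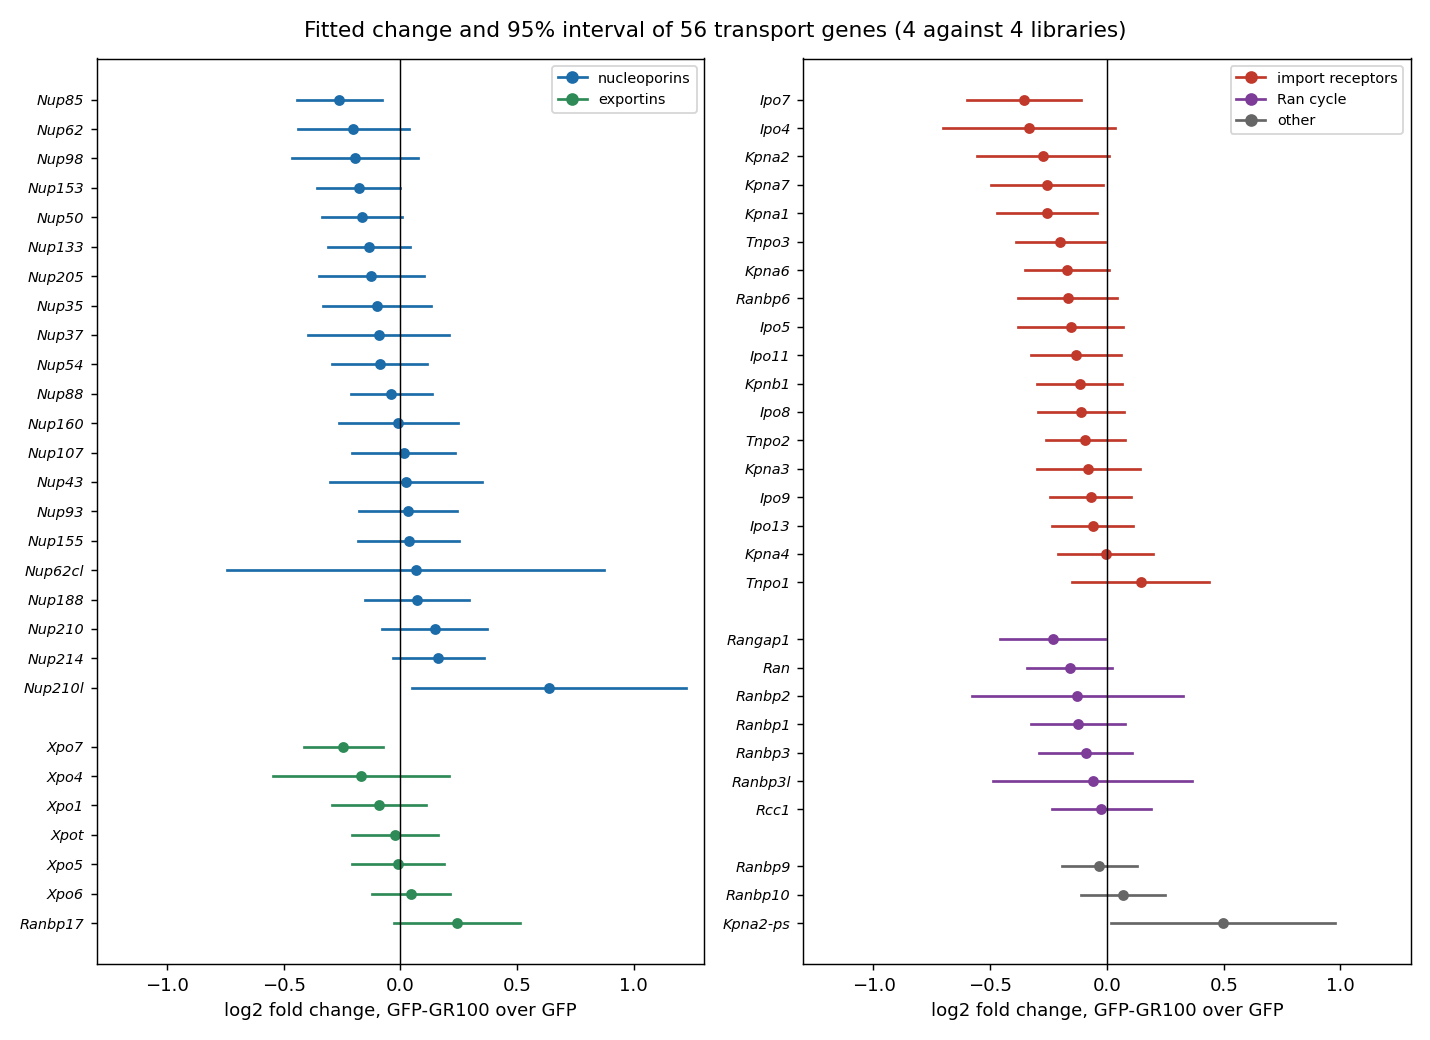
Fitted log2 fold change between GFP-GR100 and GFP (point) with its 95% interval (line) for each of the 56 genes, by role, with 4 libraries a group. Estimates of import receptors and Ran cycle genes lie mostly left of 0, and those of nucleoporins and exportins lie on both sides.

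The estimates leaned to 1 side unevenly between roles. In all, 42 of 56 (75%) lay below 0, with a median log2 fold change of -0.09, against 54.6% and -0.02 over all genes tested. Among the 6948 genes within the middle range of these genes' RPKM (3.36 to 15.4), 61.9% lay below 0 and the median was -0.05. The median levels of the import receptors (15.5 RPKM) and the Ran cycle (24.7 RPKM) lay above that range. It is therefore no background of like level for those roles. Import receptors lay below 0 in 17 of 18, with a median of -0.14. Ran cycle genes did so in 7 of 7, with a median of -0.12. Nucleoporins did so in 12 of 21, with a median of -0.04, and exportins in 5 of 7, with a median of -0.02. The difference between the roles was not tested. Under the other scalings, filters and tools and with each library left out, 15 to 17 of the 18 import receptors were below 0. Of the 7 Ran cycle genes 5 to 7 were, and 4 without GFP 3 and GFP-GR100 4 together. Nucleoporins ranged from 10 to 14 of 21 and exportins from 3 to 5 of 7, and the medians of these last classes took both signs. The medians rested partly on single libraries. Without GFP 4 that of the import receptors was -0.06 and that of all 56 genes -0.03, and without GFP-GR100 2 they were -0.08 and -0.04. Without GFP 3 the Ran cycle's median was -0.05. On the RPKM scale with limma-trend, which has no TMM scaling, 33 of 56 estimates lay below 0, against 41.0% of all genes tested there.

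Per library, the median of log2(CPM over the gene's mean) was taken over each role. For import receptors it was 0.22, 0.12, -0.14 and 0.08 over GFP 1 to 4. Over GFP-GR100 1 to 4 it was 0.05, -0.03, -0.13 and -0.22. The groups overlapped: GFP 3 lay level with GFP-GR100 3, and GFP-GR100 4 was the lowest of all. For nucleoporins it was 0.08, 0.11, -0.13 and 0.08 in GFP, and 0.08, -0.01, -0.11 and -0.05 in GFP-GR100. Here GFP 3 was the lowest of all. For exportins it was 0.23, 0.04, -0.21 and -0.01 in GFP, and 0.08, 0.11, -0.14 and -0.09 in GFP-GR100. The Ran cycle went another way, with 0.19 and 0.12 for GFP 3 and 4, -0.01 and -0.02 for GFP 1 and 2, and values from -0.10 to -0.00 in GFP-GR100. So GFP 3, the lowest library for nucleoporins and exportins and the lowest GFP library for import receptors, was the highest for the Ran cycle. GFP 3 gave the lowest GFP value in 40 of the 56 genes (71.4%), against 33.6% of all genes tested, and GFP 1 the highest in 30 (53.6%), against 31.2%.

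**Figure D3:**
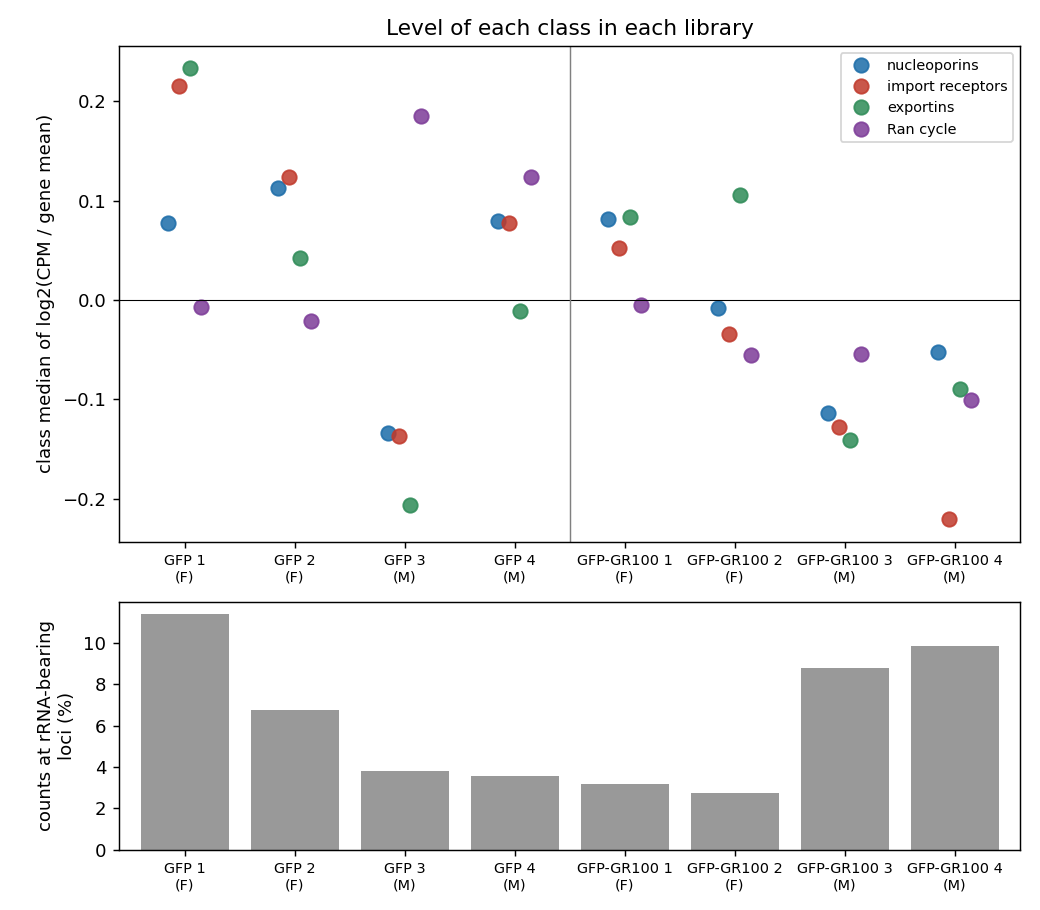
Upper panel: median over each role of log2(CPM over the gene's mean), 1 point per role and library, with sex in brackets. Lower panel: percent of counts at the loci with ribosomal RNA sequence. GFP 3 is low for 3 roles and high for the Ran cycle, and in each role the groups overlap.

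Among the import receptors, Ipo7 read 124, 99.2, 70.1 and 96.7 CPM over GFP 1 to 4 and 92.2, 78.8, 68.0 and 64.9 CPM over GFP-GR100 1 to 4. GFP 3 alone of the GFP libraries lay among the GFP-GR100 values. The means were 97.5 ± 22.1 CPM (SD, n = 4) and 76.0 ± 12.4 CPM, and the log2 fold change was -0.36 (SE 0.11, 95% interval -0.60 to -0.11, adjusted p = 0.149 by edgeR). It was called lower with no filter on low counts (adjusted p = 0.0228), as was Ipo4 (0.0401), where 1.12% of 32096 genes were. Ipo7 was also called without GFP 3, where 0.361% of genes were called lower, and without GFP 3 and GFP-GR100 4 together, where 0.548% were. These fits leave out the GFP library that lay among the GFP-GR100 values, so their calls are no separate support. Without GFP 4 the log2 fold change of Ipo7 was -0.24. Ipo4, another carrier of ribosomal proteins and histones, was called without GFP 1, where 0.235% of genes were. That fit leaves GFP 2, the highest library for Ipo4, as the only GFP female. Ipo4 read 72.0, 135, 75.6 and 83.0 CPM in GFP and 82.9, 75.8, 68.8 and 62.0 CPM in GFP-GR100. Its log2 fold change of -0.33 (SE 0.16) was -0.11 without GFP 2, its highest library. Ipo4 overlaps Tm9sf1 by 1931 bases on the same strand, and reads there could count for either.

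The 6 importin alpha adaptors, which link cargo with a classical import signal to Kpnb1, all had estimates below 0, with a median of -0.21. Kpna1, an adaptor abundant in neurons, read 183, 141, 130 and 155 CPM in GFP and 139, 132, 123 and 115 CPM in GFP-GR100. The groups overlapped through GFP 3, and the log2 fold change was -0.26 (SE 0.10, interval -0.47 to -0.04, adjusted p = 0.241). Kpna7 read 12, 10.8, 10.7 and 12.6 CPM in GFP and 10.5, 9.65, 10.1 and 8.24 CPM in GFP-GR100. Every GFP value lay above every GFP-GR100 value, with a log2 fold change of -0.26 (SE 0.11, adjusted p = 0.286). Kpna7 lies on chr5:144983519-145084030 (mm10) and shares 201 bases with Arpc1a, which is transcribed from the opposite strand at 141 to 193 CPM. The sources used here do not say whether the counting used strand, so reads of that pair cannot be told apart. Kpna2 had -0.27 (SE 0.13, adjusted p = 0.337). Without GFP 4 the estimate was -0.17 in Kpna7 and -0.15 in Kpna2. Kpna3 and Kpna4 were nearer 0, at -0.08 and -0.01, and Kpna4 changed sign under 7 other settings and in 4 of the 8 fits without 1 library.

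Kpnb1 read 217, 209, 164 and 195 CPM in GFP and 203, 189, 168 and 163 CPM in GFP-GR100. These groups overlapped widely, with a log2 fold change of -0.12 (SE 0.08, interval -0.30 to 0.06, adjusted p = 0.511). Tnpo3, the carrier of serine-arginine-rich splicing factors, had -0.20 (SE 0.09, interval -0.39 to -0.01, adjusted p = 0.297). It shares 1045 bases with Irf5 on the opposite strand. Tnpo2 had -0.09 (SE 0.08). Without GFP 4 these estimates were -0.04 in Kpnb1, -0.11 in Tnpo3 and -0.03 in Tnpo2. Tnpo1 (karyopherin beta 2), which imports RNA-binding proteins, was the only import receptor with an estimate above 0, at 0.14 (SE 0.13, interval -0.15 to 0.44, adjusted p = 0.614). With each library left out it ran from 0.05 (without GFP-GR100 4) to 0.26 (without GFP-GR100 1). Its values are given with the sexes below.

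In the Ran cycle, Rangap1 read 220, 236, 235 and 268 CPM in GFP and 237, 215, 189 and 179 CPM in GFP-GR100. GFP-GR100 1 lay among the GFP values and the other GFP-GR100 libraries below all of them. The log2 fold change was -0.23 (SE 0.10, interval -0.46 to -0.01, adjusted p = 0.306). Ran read 147, 139, 176 and 164 CPM in GFP and 143, 126, 151 and 139 CPM in GFP-GR100. The groups overlapped among the females, while both GFP-GR100 males lay below both GFP males. The log2 fold change was -0.16 (SE 0.08, interval -0.34 to 0.02, adjusted p = 0.372). Ranbp1, which helps Rangap1 act on Ran, had -0.12 (SE 0.09, adjusted p = 0.527). Without GFP 4 the estimate of Rangap1 was -0.13, and without GFP 3 those of Ran and Ranbp1 were -0.10 and -0.04. Without GFP-GR100 4 that of Ranbp1 was -0.06. Rcc1 had -0.02 (SE 0.10, interval -0.24 to 0.19, adjusted p = 0.923) and took both signs under other settings. Ranbp2 (Nup358), the large protein on the cytoplasmic filaments that holds Rangap1 at the pore, read 194, 145, 66.4 and 122 CPM in GFP and 141, 123, 101 and 102 CPM in GFP-GR100. Its spread was 40.2% of the mean in GFP and 16.2% in GFP-GR100, and its interval of -0.58 to 0.32 was among the widest. Its estimate of -0.13 (SE 0.20) turned positive in 2 of the 8 fits without 1 library.

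**Figure D4:**
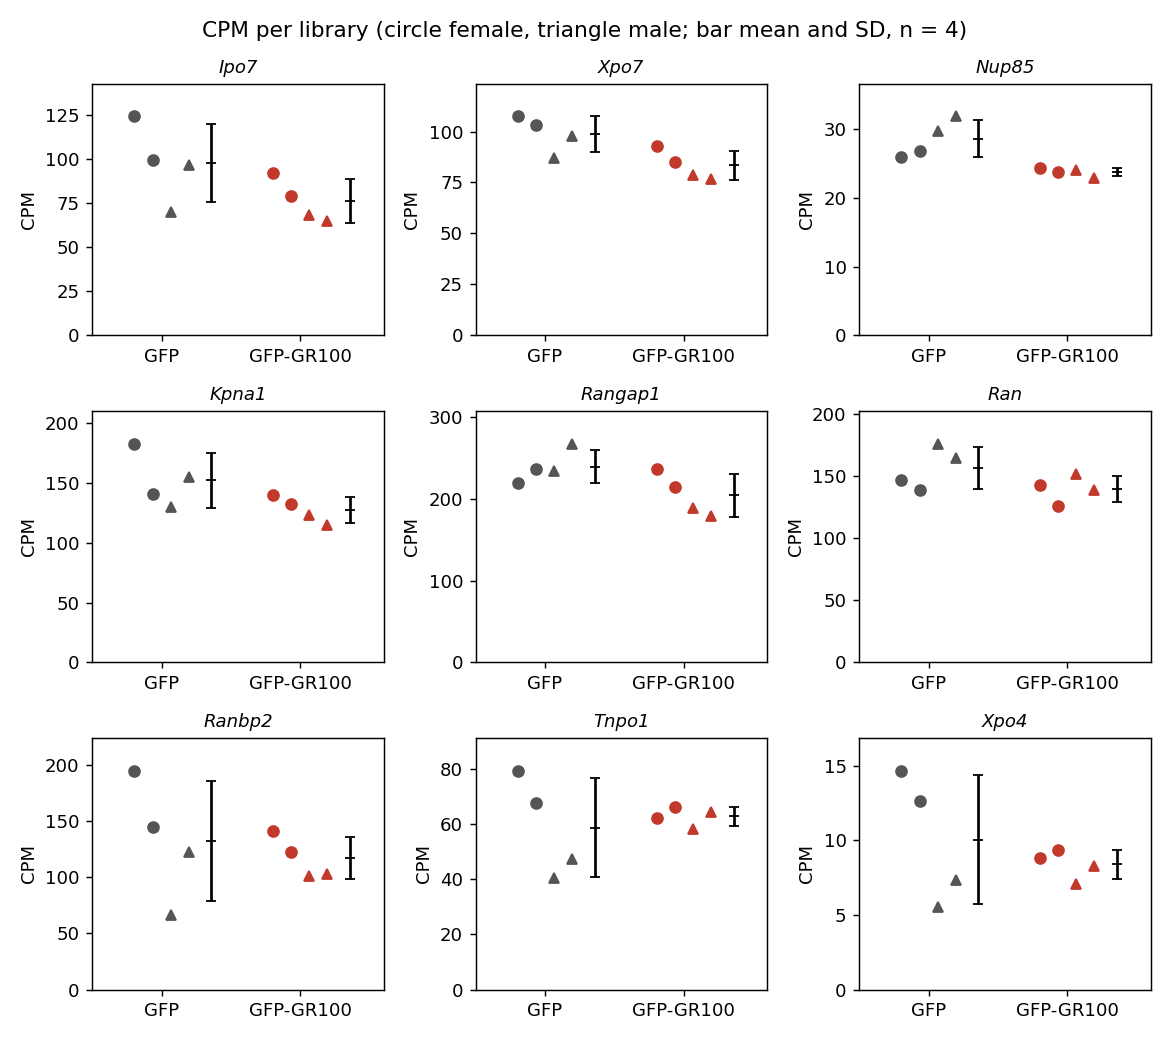
CPM per library for 9 genes, GFP in grey and GFP-GR100 in red, females as circles and males as triangles, with the group mean and SD beside them (n = 4). The groups separate in Nup85 alone, and GFP 3 is the lowest GFP library in Ipo7, Xpo7, Kpna1, Ranbp2, Tnpo1 and Xpo4.

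Of the nucleoporins, Nup85 in the outer ring read 26.0, 26.8, 29.7 and 31.8 CPM in GFP and 24.3, 23.8, 24.0 and 22.9 CPM in GFP-GR100. The groups did not overlap, and the means were 28.6 ± 2.69 CPM and 23.8 ± 0.613 CPM (SD, n = 4). The log2 fold change was -0.26 (SE 0.08, interval -0.44 to -0.08, adjusted p = 0.156 by edgeR). Nup85 and Kpna7 were the 2 of 56 genes with non-overlapping groups, both lower in GFP-GR100, where 3.03% of all genes tested were lower in that sense. None of the 56 was higher in that sense, against 5.03% of all genes. The other 5 outer ring genes, partners of Nup85 in the Y-shaped complex, lay between -0.13 (Nup133) and 0.02 (Nup43). Nup133 lies wholly within an antisense gene model, and Nup43 overlaps Pcmt1 on the opposite strand by 11379 bases.

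In the central channel Nup62 read 32.1, 36.6, 37.9 and 41.1 CPM in GFP and 36.4, 34.6, 30.7 and 27.0 CPM in GFP-GR100, with a log2 fold change of -0.20 (SE 0.11, adjusted p = 0.390). It was -0.10 without GFP 4 and -0.11 without GFP-GR100 4. Nup62 shares 14423 bases with Il4i1 on the same strand and 571 with Atf5 on the opposite strand, so its level and its difference are uncertain. The basket proteins and Nup98 all had estimates below 0. Nup153, which anchors the basket, read 50.4, 51.5, 34.5 and 41.4 CPM in GFP and 44.7, 42.4, 34.8 and 34.6 CPM in GFP-GR100. Its groups overlapped, with both GFP males below both GFP-GR100 females, and the log2 fold change was -0.18 (SE 0.08, adjusted p = 0.320). Nup50 had -0.16 (SE 0.08) and Nup98, a mobile channel protein, -0.19 (SE 0.12, adjusted p = 0.460). Without GFP 4 these were -0.11 in Nup153, -0.09 in Nup50 and -0.03 in Nup98. The inner ring lay between -0.12 (Nup205, -0.03 without GFP 4) and 0.07 (Nup188, which shares 14682 bases with Gm28038 on the same strand). On the cytoplasmic face Nup214 had 0.16 (SE 0.09, adjusted p = 0.396) and its partner Nup88 -0.04 (SE 0.08). The membrane-spanning Nup210 had 0.15 (SE 0.10, adjusted p = 0.502), and with each library left out 0.08 (without GFP-GR100 4) to 0.24 (without GFP 4). Nup210l read 0.544, 0.419, 0.444 and 0.447 CPM in GFP and 0.733, 0.482, 0.839 and 0.847 CPM in GFP-GR100, with a log2 fold change of 0.64 (SE 0.27, adjusted p = 0.283). It overlapped through GFP-GR100 2 and was read at a level where 3 counts are 0.0328 to 0.0495 CPM.

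Of the exportins, Xpo7 read 107, 103, 86.9 and 97.6 CPM in GFP and 92.7, 85.3, 78.8 and 76.8 CPM in GFP-GR100. GFP-GR100 1 lay above GFP 3 and the other GFP-GR100 libraries lay below every GFP library. The log2 fold change was -0.24 (SE 0.08, interval -0.41 to -0.08, adjusted p = 0.152). Ranbp17, its relative, had 0.24 (SE 0.12, interval -0.03 to 0.51, adjusted p = 0.362). Xpo1 read 84.4, 76.7, 72.5 and 85.5 CPM in GFP and 72.7, 65.0, 79.1 and 83.6 CPM in GFP-GR100, with a log2 fold change of -0.09 (SE 0.09, interval -0.29 to 0.11, adjusted p = 0.649). With each library left out it ran from -0.14 (without GFP 3) to -0.02 (without GFP-GR100 2). Xpot, Xpo5 (the exporter of miRNA precursors) and Xpo6 (the exporter of actin with profilin) lay between -0.02 and 0.05.

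Of the genes outside these roles, Ranbp9, a scaffold of an E3 ligase complex, was the steadiest, at 65.4 to 69.3 CPM in GFP and 62.8 to 68.5 CPM in GFP-GR100. Kpna2-ps, a processed pseudogene of Kpna2, had 0.50 (SE 0.22, adjusted p = 0.303), which was 0.31 without GFP 3 and 0.32 without GFP-GR100 4. It lies wholly within Med20 on the opposite strand, and its reads could come from Kpna2 or Med20.

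The difference between the groups was also compared between the sexes, with 2 libraries of each group in each sex. By edgeR 0 of the 56 genes had an adjusted p under 0.05 for the sex-by-group term, against 0.0524% of all genes tested, and the smallest adjusted p was 0.113 (Tnpo1). At an unadjusted p under 0.05 there were 7 genes (12.5%), against 16.4% of all genes. Tnpo1 read 79.3, 67.6, 40.6 and 47.2 CPM over GFP 1 to 4. Over GFP-GR100 1 to 4 it read 62.2, 66.3, 58.3 and 64.4 CPM. The GFP males stood alone as low, and the log2 fold change was -0.19 in females and 0.48 in males. Xpo4, an exportin that also imports Sox factors, read 14.7, 12.6, 5.51 and 7.33 CPM over GFP 1 to 4. It read 8.84, 9.37, 7.06 and 8.28 CPM over GFP-GR100 1 to 4, between the GFP females and the lower GFP male. Its log2 fold change was -0.58 in females and 0.26 in males (adjusted p of the difference 0.136). Rangap1 had -0.01 in females and -0.45 in males (0.196), and Nup62 0.05 and -0.45 (0.159). Kpna2-ps had -0.02 and 1.01 (0.159), Ranbp3, a cofactor of Xpo1, 0.10 and -0.28 (0.214), and its relative Ranbp3l -0.50 and 0.38 (0.185). The share of counts at the ribosomal loci ran in the same sex-by-group pattern, and its part in the sex-by-group term was not tested. Without GFP 4, Tnpo1, Xpo4 and Ranbp2 passed the adjusted threshold, where 2.06% of all genes did, and without GFP-GR100 3 Tnpo1 did, where 3.9% did. Each of these fits leaves the males of a group with 1 library, which is assumed to vary like the others, so they are no test across animals there. In the GENCODE M21 annotation Xpo4 also shares 23354 bases with the model Gm49361 on the same strand, for which no counts were found here.

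**Figure D5:**
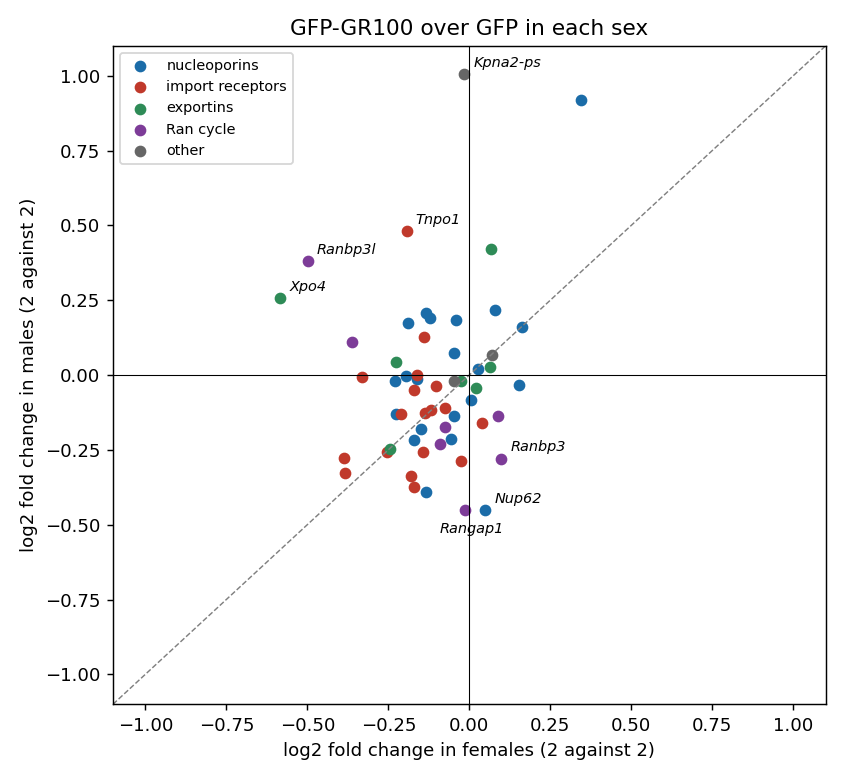
Log2 fold change between GFP-GR100 and GFP in males against that in females, 1 point per gene, coloured by role, with the line of equality dashed. The 7 genes with an unadjusted p under 0.05 for the difference are named, and Tnpo1 lies at -0.19 in females and 0.48 in males.

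A second list held 32 other genes of nuclear transport and the envelope that the names above leave out. None was called by edgeR. At an unadjusted p under 0.05, 1 was higher (Sun2, a protein of the inner nuclear membrane, at 0.23) and 7 were lower, beside 8.23% and 7.37% of all genes tested. The groups did not overlap in 4 of the 32, all lower in GFP-GR100 (Tmem33, Snupn, Gle1 and Ddx19a), beside 3.03% of all genes. Among those 7, Nupl1 (Nup58), the channel partner of Nup62, had -0.31 and Cse1l, which returns importin alpha to the cytoplasm, -0.23. Snupn, the import adaptor of spliceosomal snRNPs, had -0.29, Rangrf, which binds Ran, -0.36, and Nutf2, which imports Ran itself, -0.19. In all 23 of 32 (71.9%) lay below 0 with a median of -0.09, beside 54.6% and -0.02 over all genes tested. Among the 6948 genes at 3.36 to 15.4 RPKM these were 61.9% and -0.05, and the 32 genes lay at 2.07 to 24.1 RPKM.

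The DNA before the start sites was read for the motifs of NRF1, ETS factors, the interferon response and heat shock, and for TATA and CCAAT. RefSeq promoter windows (GRCm38.p6, the mm10 assembly, 250 bases before to 50 after the start) were matched for 44 of the 56 genes, in 51 windows. They were richer in GC (median 64.3%) than all windows (52.7%) and held a median of 28 CpG against 7. GCATGCGC, the core bound by NRF1, was searched on both strands and lay in windows of 7 genes, or 13.7% of member windows, against 2.71% of all windows and 4.35% of those of genes tested. Within the middle range of CpG number it lay in 2 of 27 member windows, against 6.75% of windows of genes tested. The sequences below show it in genes of each role except the import receptors, where none was found, and capitals mark 1 match in each, with the flanking bases G and C where they complete the palindrome GCGCATGCGC. Each runs 5′ to 3′ on the gene's strand. That of Ran is chr5:129019921-129019990 (plus strand), with the match 205 to 196 bases before the start. That of Ranbp1 is chr16:18248796-18248863 (minus strand), with the match 139 to 132 bases before it. That of Nup107 is chr10:117792731-117792800 (minus strand, 65 to 56 bases before), that of Nup62 chr7:44816038-44816087 (plus strand, 20 to 11 bases before), and that of Xpo5 chr17:46202696-46202765 (plus strand, 85 to 76 bases before). The stretch of Xpo5 holds a second match, left in lower case, 62 to 53 bases before the start.
Ran: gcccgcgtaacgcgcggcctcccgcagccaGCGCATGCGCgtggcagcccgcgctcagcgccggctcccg
Ranbp1: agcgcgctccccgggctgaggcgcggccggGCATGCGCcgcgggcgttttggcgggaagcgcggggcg
Nup107: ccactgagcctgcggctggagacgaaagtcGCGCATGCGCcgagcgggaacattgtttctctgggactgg
Nup62: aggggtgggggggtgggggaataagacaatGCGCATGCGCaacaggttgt
Xpo5: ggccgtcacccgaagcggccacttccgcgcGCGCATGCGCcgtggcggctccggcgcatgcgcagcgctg
The other genes with a match were Nup50 and Rcc1. The log2 fold changes of the genes printed were -0.16 (Ran), -0.12 (Ranbp1), 0.01 (Nup107), -0.20 (Nup62) and -0.01 (Xpo5), none called. For the interferon-response motif (GAAA, 2 bases of any kind, GAAA, on either strand), whose target genes Ifit1, Oasl2 and Irf7 were called higher here, a match lay in 3 member windows (5.88%, against 3.44% of all windows), those of Ranbp3l, Tnpo2 and Xpo6, whose log2 fold changes were -0.06, -0.09 and 0.05. The heat shock motif (GAA, TTC and GAA, each parted by 2 bases of any kind, on either strand) was in 0 member windows, against 0.603% of all windows. A match describes letters in a window and shows no binding.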

How the data were processed

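Per the labels, stranded total-RNA libraries of mouse cortex with hippocampus were sequenced as read pairs. Per the submitters' processing notes, the authors used CASAVA, TopHat2 2.1.0, the mm10 genome, DESeq2 and R 3.4.1. The sources used here do not give the gene counter, annotation release or use of strand. The authors deposited raw counts and RPKM per gene in 1 table. The RPKM rest on library totals 1.00023 to 1.00024 times the summed counts, ribosomal loci included.

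Counts were fitted with edgeR 4.0.16 (R 4.3.3): TMM scaling, filterByExpr (minimum count 10, total 15), sex and group as terms, robust quasi-likelihood, Benjamini-Hochberg adjustment over 20987 genes, threshold 0.05. CPM are TMM-scaled. Standard errors were the absolute fold change over the square root of F. DESeq2 1.42.0, limma 3.58.1 (voom, and trend on log2(RPKM + 0.1)), other filters, scalings, covariates and left-out libraries were alternatives. Fits were tested on simulated data. Libraries of 1 group differed beyond counting noise (lowest chi-square per degree of freedom 16.7).

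Members and lists were chosen with earlier results of these data known. Genes were named by a rule: the 8 smallest p, a set of central transport genes, the highest level and the extreme changes in each role, the 3 smallest p for sex by group, non-overlapping groups, and the lowest count sums. Further genes are named to complete a role or a count. One gene of the interferon list is not reported here.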

Additional observations from a re-analysis of the deposited data

Results flagged for a closer look

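In 5 of 112 groups of 4 libraries (4.46%), 1 library stood apart from the other 3 by Dixon's test, where chance gives about 1 in 20. Nup50, a basket protein, read 40.3 CPM in GFP 3 against 47.1 to 47.6 CPM in the other GFP libraries. Ranbp10, the relative of Ranbp9, read 29.8 CPM in GFP 3, the lowest of its group. GFP-GR100 4 was lowest for the adaptor Kpna3, at 70.6 CPM. GFP-GR100 2 was lowest for the inner ring protein Nup35, at 8.11 CPM. GFP 2 was highest for Ipo13, a receptor that works in both directions, at 96.6 CPM.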

How the results depend on the processing

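No member was called higher under any alternative run. Of members called lower, the count was 2 with no filter on low counts, where 1.12% of all genes were. It was 1 without GFP 3 and GFP-GR100 4 together, where 0.548% were, and 0 to 1 with each library left out. Those last calls came without GFP 1 (Ipo4) and without GFP 3 (Ipo7), where 0.235% and 0.361% of all genes were called lower. With the ribosomal share as a covariate many genes had their smallest adjusted p by edgeR, none of these under 0.05. In Nup85 it was 0.0528 (0.156 in the main fit), in Xpo7 0.0759 (0.152) and in Rangap1 0.0877 (0.306). The share of all genes called in that fit is not given here. Other genes had their smallest adjusted p under another fit. For sex by group the count was 0 to 3 with each library left out, where 1 of the 4 sex-by-group cells has a single library, assumed to vary like the others. The medians of nucleoporins, import receptors and exportins moved by less than 1 SD between libraries, and that of the Ran cycle by more, from -0.12 to -0.02 by limma-trend. In that fit the median of all genes moved too, from -0.02 to 0.04. Taken less the median of all genes, the Ran cycle's median moved from -0.10 to -0.06. Of 646 values of 36 named genes, 600 kept their direction and side of the threshold, 3 (all Ipo7) passed it, and 43 in 10 genes changed sign with none called, and the cause was not tested.
Kpna4 read 0.0024 by DESeq2 and by its size factors, 0.064 by limma-trend, 0.034 at 1 CPM or more, 0.0086 with no filter, 0.011 without the ribosomal loci in the totals and 0.0018 with their share as a covariate. By limma-trend Rcc1 read 0.041, Xpot 0.045, Nup88 0.026 and Ranbp9 0.033. At 1 CPM or more Rcc1 read 0.015, Xpot 0.017 and Ranbp9 0.0065. Without GFP 3 and GFP-GR100 4, Ranbp1 read 0.0090, Rcc1 0.091, Xpot 0.012, Nup88 0.016, Ranbp9 0.0054 and Nup93 -0.032.
With each library left out, log2 fold changes ran from -0.057 to 0.068 in Kpna4, -0.061 to 0.13 in Nup43, -0.045 to 0.24 in Nup62cl, -0.071 to 0.022 in Nup88, -0.051 to 0.11 in Nup93, -0.30 to 0.039 in Ranbp2, -0.062 to 0.00049 in Ranbp9, -0.078 to 0.039 in Rcc1 and -0.067 to 0.039 in Xpot. Scaling and tool moved the median of all genes from -0.02 to at most 0.04. No paired analysis was possible because the labels give no replicate numbers that groups share. With 4 animals a group, the intervals set what could be seen.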
